A study of Homo sapiens with 4 samples.

Results

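ZNF251, ZNF34, ZNF517, ZNF7, ZNF250 and ZNF16 are 6 zinc finger genes that lie close together near the end of the long arm of chromosome 8, in band 8q24.3. They are 6 of 566 zinc finger genes and of 20162 protein-coding genes with a gene body in the annotation. The genes were selected from the coverage of their bodies, and of the surrounding stretch of chromosome 8 from 145860000 to 146364022 (hg19, 504.023 kb), by 3 lists of H4K20me3 regions. That coverage is therefore given as a description, with no test. RPL8, a ribosomal protein gene in the same stretch, serves as an active neighbour of another kind.

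H4K20me3, trimethylated lysine 20 of histone H4, was profiled by ChIP-seq, the sequencing of DNA recovered with an antibody to a chromatin mark, in IMR90, a widely used line of human diploid lung fibroblasts with a limited capacity to divide. Proliferating cells at population doubling 32 (PRO) were set against replicative senescent cells at population doubling 86 (RS), which had stopped dividing after serial passage. Neither group carried a transgene or received a drug, and each held 2 samples, 1 for each of 2 rabbit monoclonal antibodies (Millipore and Cell Signaling Technology). Cells of both groups were fixed with formaldehyde. The study describes its RS experiments as independent, and the labels do not say which cultures the samples came from. For each group there is 1 merged list of peaks that both antibodies share, and a DiffBind list holds regions of differential enrichment between PRO and RS. There is thus no spread between replicates and no p-value for any difference below, and the lists hold no read depth and no expression values with which to check the cell type. The DiffBind list gives no direction of change and has 18711 regions, fewer than the study states. Each value therefore holds for the list used here.

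Zinc finger proteins of this kind bind DNA through an array of repeated C2H2 fingers, each holding a zinc ion between a pair of cysteines and a pair of histidines. The whole array is usually encoded in the last exon of the gene, and related genes sit in clusters that arose by tandem duplication. ZNF7, ZNF34, ZNF250, ZNF251 and ZNF517 also carry a KRAB domain, which recruits the corepressor TRIM28 and through it the H3K9 methyltransferase SETDB1. H4K20me3 is laid down by KMT5B and KMT5C (SUV420H1 and SUV420H2) at chromatin that already carries H3K9me3 bound by HP1, and zinc finger gene clusters are a known place for both marks.

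To ask how the mark is distributed over this chromosome end, the regions in the stretch were first counted. PRO cells had 3 peaks that covered 2.603 kb, or 0.516% of it. RS cells had 31 peaks that covered 67.4 kb, or 13.4%, with a median length of 1001 bp and a longest peak of 11401 bp. The shortest was 1 base long, as were 457 of the 35535 peaks of the whole RS list. The DiffBind list had 14 regions over 61.2 kb, or 12.1%. RS bases exceeded PRO bases 25.9 times here, compared with 5.81 times over the rest of chromosome 8 and 11.1 times over the whole genome. The ratio rests on few PRO bases. The study, which also measured subtelomeric regions, reports a decrease of H4K20me3 there in RS. How those regions relate to this stretch was not examined. The rest of chromosome 8 had 1.13% of its length in RS peaks, and the stretch held 3.92% of the RS bases of the chromosome on 0.344% of its length. The last 60 kb before the chromosome end are unknown bases in the assembly and can hold no peak.

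**Figure D1:**
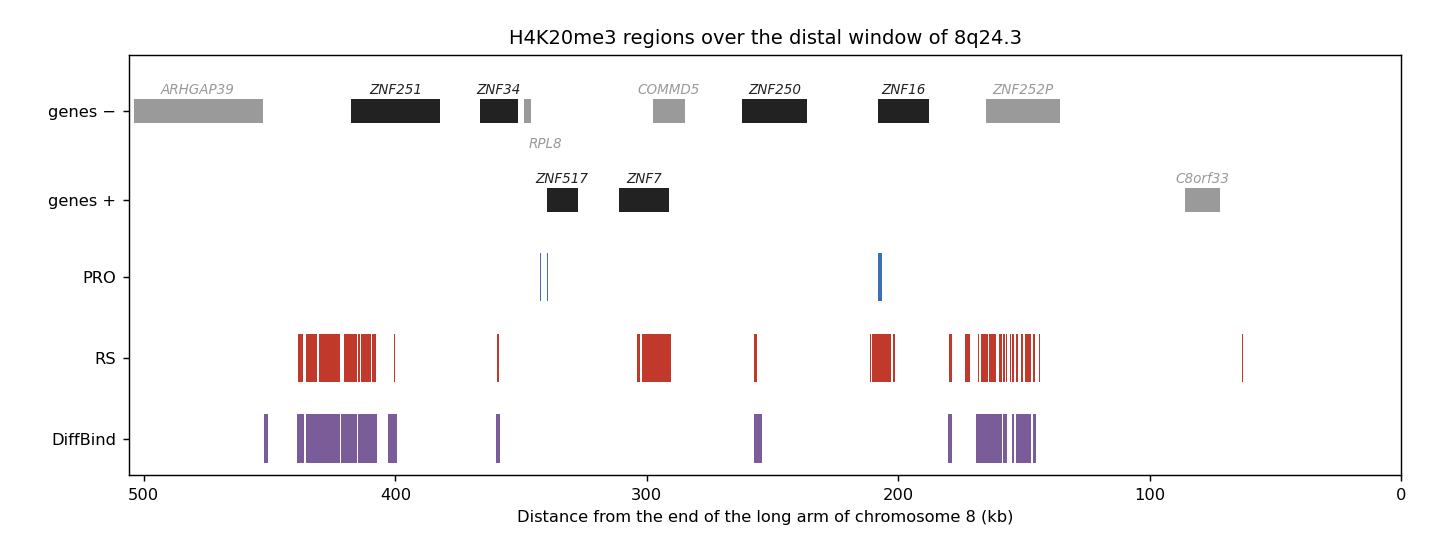
Position of genes (both strands, zinc finger genes in black and others in grey) and of regions of the PRO, RS and DiffBind lists, as distance from the chromosome end in kb. The 31 RS peaks fall into separate groups around ZNF251, ZNF7, ZNF16 and ZNF252P, with single short peaks in ZNF34 and ZNF250, and no region touches RPL8.

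The RS peaks were not spread evenly. When peaks at most 10 kb apart were joined, they formed 7 groups. The group nearest the centromere, from 145925201 to 145964001, ran from the stretch beyond the 3′ end of ZNF251 into that gene and held 27.008 kb of RS bases, or 40.1% of those in the stretch. The group over ZNF252P, an annotated zinc finger pseudogene, ran from 146184201 to 146220201 and held 17.0 kb (25.2%). The group over ZNF7 and its neighbour COMMD5 (146060201 to 146073601) held 12.4 kb (18.4%), and the group over the 3′ part of ZNF16 (146153001 to 146162801) held 8.603 kb (12.8%). ZNF34 and ZNF250 each held a single peak, of 1001 bp and 1201 bp. The remaining peak, of 201 bp, lay 63.0 kb from the chromosome end in no coding gene. Every other RS peak lay at least 143.8 kb from the chromosome end.

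By annotation, the 6 gene bodies held 43.7% of the RS bases of the stretch, non-coding genes and pseudogenes outside coding genes held 28.7%, and sequence outside annotated genes held 26.5%. Parts of other coding genes that overlap none of the 6 held 1.05%, with the sequence shared by ZNF7 and COMMD5 counted under ZNF7. In share of their own length, the 6 gene bodies were covered at 22.8% in RS and 1.66% in PRO, a ratio of 13.8, and at 14.03% in the DiffBind list. Non-coding genes and pseudogenes were covered at 33.5% in RS and 0% in PRO.

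The genes were next taken one by one. A region of the RS list shared at least 1 base with 5 of the 6 gene bodies (background: 21.0% of all coding genes). The DiffBind list touched 3 of 6 (background 18.3%), and the PRO list 2 of 6 (background 3.97%). Since this coverage was used to choose the genes, nothing is read from these counts. The median share of a gene body was 16.4% in RS, 5.29% in the DiffBind list and 0% in PRO. The members spanned nearly the full range between untouched and mostly covered, from 0% to 58.5% in RS. The 6 genes showed 4 combinations of lists.

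ZNF7 (ENSG00000147789, plus strand, 146052903 to 146072894) was the most covered in RS. RS peaks held 11695 of its 19992 bp, or 58.5%, while the PRO and DiffBind lists held 0%. Its RS share was higher than that of 88.3% of zinc finger genes and 99.2% of all coding genes. A peak of 11401 bp, the longest in the stretch, ran from 146062201 to 146073601, past the annotated 3′ end of the gene. A further peak of 1001 bp lay upstream in an intron. ZNF7 thus combines the broadest RS peak of the stretch with no region in the DiffBind list used here. That list is shorter than the study states.

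ZNF16 (ENSG00000170631, minus strand, 146155744 to 146176274) was the single member with both a PRO and an RS peak. RS peaks held 6259 bp (30.5%) and a PRO peak of 1601 bp, from 146156001 to 146157601, held 7.80%. The PRO peak lay wholly inside an RS peak of 7601 bp. The DiffBind list held 0% of the gene. In PRO share ZNF16 ranked 31 among 566 zinc finger genes, against 185 in RS share.

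ZNF251 (ENSG00000198169, minus strand, 145946292 to 145981802) had 9314 bp (26.2%) in 5 RS peaks and 13512 bp (38.1%) in 3 DiffBind regions. It had 0% in PRO. Unlike ZNF7 and ZNF16, every RS base in it lay in a DiffBind region. Its coverage continued past the 3′ end, where RS peaks of 2201, 4601 and 8401 bp and part of one of 5001 bp lay in non-coding annotation and intergenic sequence.

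ZNF34 (ENSG00000196378, minus strand, 145997609 to 146012730) and ZNF250 (ENSG00000196150, minus strand, 146101882 to 146127553) had the smallest RS shares above 0%. In ZNF34, 1 RS peak held 1001 bp (6.62%) and 1 DiffBind region held 1601 bp (10.6%). In ZNF250, 1 RS peak held 1201 bp (4.68%) and 1 DiffBind region held 3001 bp (11.7%). Neither gene had a PRO peak. In both, the DiffBind region was wider than the RS peak inside it.

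ZNF517 (ENSG00000197363, plus strand, 146024261 to 146036554) showed the reverse pattern. It had 0% in RS and in the DiffBind list, and a PRO peak of 601 bp from 146024201 to 146024801 that held 541 bp (4.40%) of the gene. This peak covered the annotated start of the gene and the first exon of the transcript used. Its GC content was 73.5%, compared with 56.2% over the whole gene, the highest among the 6 gene bodies. The other PRO peak of the stretch, 401 bp from 146021601 to 146022001, lay upstream of ZNF517 in no annotated gene, and 79.8% of its 75-base windows occurred elsewhere in the genome. Reads of such windows cannot be placed at 1 position, so this peak is uncertain. No RS peak overlapped either of these PRO peaks.

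**Figure D2:**
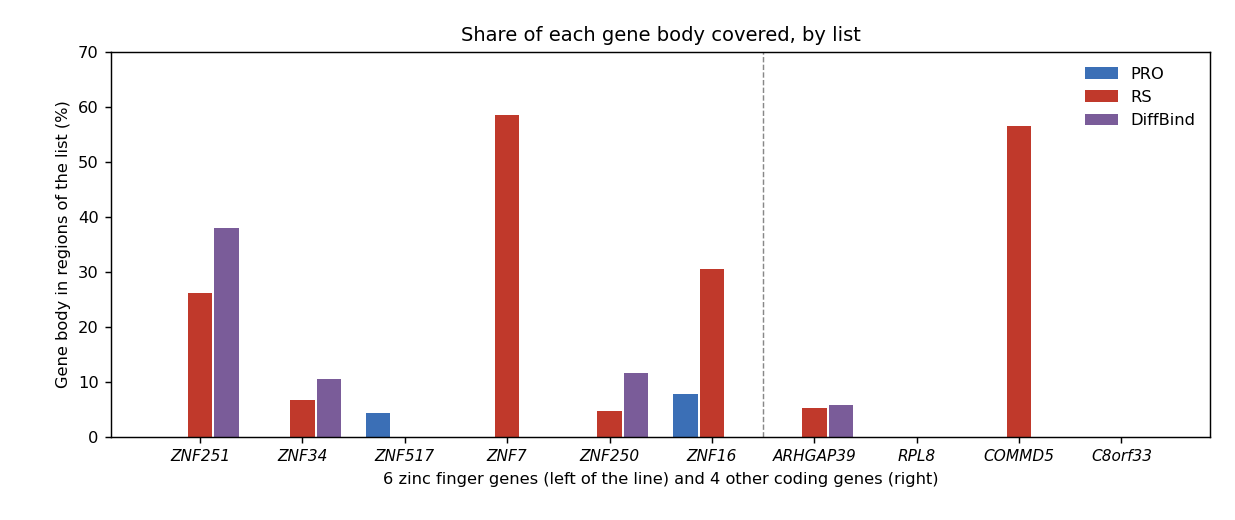
Bars give the percentage of each gene body in regions of the PRO, RS and DiffBind lists, each a single merged list with no error bar. ZNF7 (58.5%), ZNF16 (30.5%) and ZNF251 (26.2%) stand highest in RS among the 6 zinc finger genes, and RPL8 and C8orf33 are at 0% in all 3 lists.

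The other coding genes of the stretch gave a mixed picture. RPL8 (146015150 to 146017972), which encodes a protein of the large ribosomal subunit, had 0% in all 3 lists and no region within 2000 bp of its start. It lies between ZNF34 and ZNF517. C8orf33 (146277851 to 146292071), an open reading frame nearer the chromosome end, was likewise at 0%. COMMD5 (146066427 to 146079121), of the COMM domain family, had 56.5% in RS and 0% in the other lists. It overlaps the 3′ part of ZNF7 on the opposite strand, and its RS bases all belong to the peak of 11401 bp over ZNF7. In the sequence shared by both gene bodies, position alone cannot assign the peak to either gene. The canonical COMMD5 transcript (146075561 to 146078433), however, had 0% of its exons and introns in RS. The COMMD5 share thus comes from the longer annotated gene body. ARHGAP39 (145754563 to 145911231), which lies mostly outside the stretch, had 5.24% in RS and 5.87% in the DiffBind list. All of these bases lay outside the stretch. Within the stretch, the ARHGAP39 body had 0% in all 3 lists. The DiffBind region from 145911801 to 145913401, near the start of ARHGAP39, was the 1 of 14 with no RS peak.

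Of the non-coding genes, the lncRNAs ENSG00000263612 and ENSG00000290885 and the pseudogene ENSG00000255085, all beyond the 3′ end of ZNF251, had the largest shares in RS, at 100%, 86.1% and 79.9%. Their DiffBind shares were 100%, 88.9% and 100%. ZNF252P (pseudogene model, 146201576 to 146225109), named here after its values were seen, had 40.9% in RS and 56.2% in the DiffBind list. All 4 had 0% in PRO.

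To ask where within the genes the mark lies, exons, introns and the finger arrays were examined in the canonical transcript of each gene. Fingers were counted in the translated coding sequence as C2H2 motifs, and the array was taken from the first to the last of them. ZNF16 had 15 motifs, ZNF7 had 14, ZNF250 had 13, ZNF251 and ZNF34 had 12 each and ZNF517 had 9. In all 6 genes every motif lay in the last exon. The arrays were 804 to 1299 bp long.

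RS peaks covered the array completely in 4 of 6 genes, ZNF251, ZNF7, ZNF250 and ZNF16, and not at all in ZNF34 and ZNF517. In ZNF250 the single RS peak, from 146106801 to 146108001, was little more than the array itself, which spans 146106912 to 146107982. In ZNF16 the array (146156136 to 146157374) was covered completely in PRO as well. In ZNF34 the RS peak lay wholly in an intron, upstream of the array. DiffBind regions covered the array completely in ZNF251 and ZNF250 and not at all in the other 4 genes.

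Summed over the 6 genes, RS peaks held 72.0% of the bases of the arrays, 60.8% of all coding bases, 18.8% of untranslated exon bases and 17.0% of intron bases. The corresponding DiffBind shares were 34.2%, 28.1%, 8.62% and 14.01%, and the PRO shares were 18.5%, 13.6%, 1.55% and 0.472%. In contrast, within 2000 bp of the annotated gene starts RS peaks and DiffBind regions held 0 of 24006 bases. PRO peaks held 601 bases there, all at ZNF517. Measured along the gene, 93.4% of the RS bases of the 6 genes lay on the 3′ side of the gene midpoint, and each of the 5 genes with an RS peak had more RS bases on that side. Among the 560 other zinc finger genes 57.6% of RS bases lay on the 3′ side, with more RS bases on that side in 237 genes and on the 5′ side in 122. When each gene was cut into 5 segments of equal length, the segment at the 3′ end was covered at 100% in ZNF7 and ZNF16, at 88.8% in ZNF251, at 4.19% in ZNF250 and at 0% in ZNF34 and ZNF517. The segment at the 5′ end was at 0% in RS in all 6 genes.

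**Figure D3:**
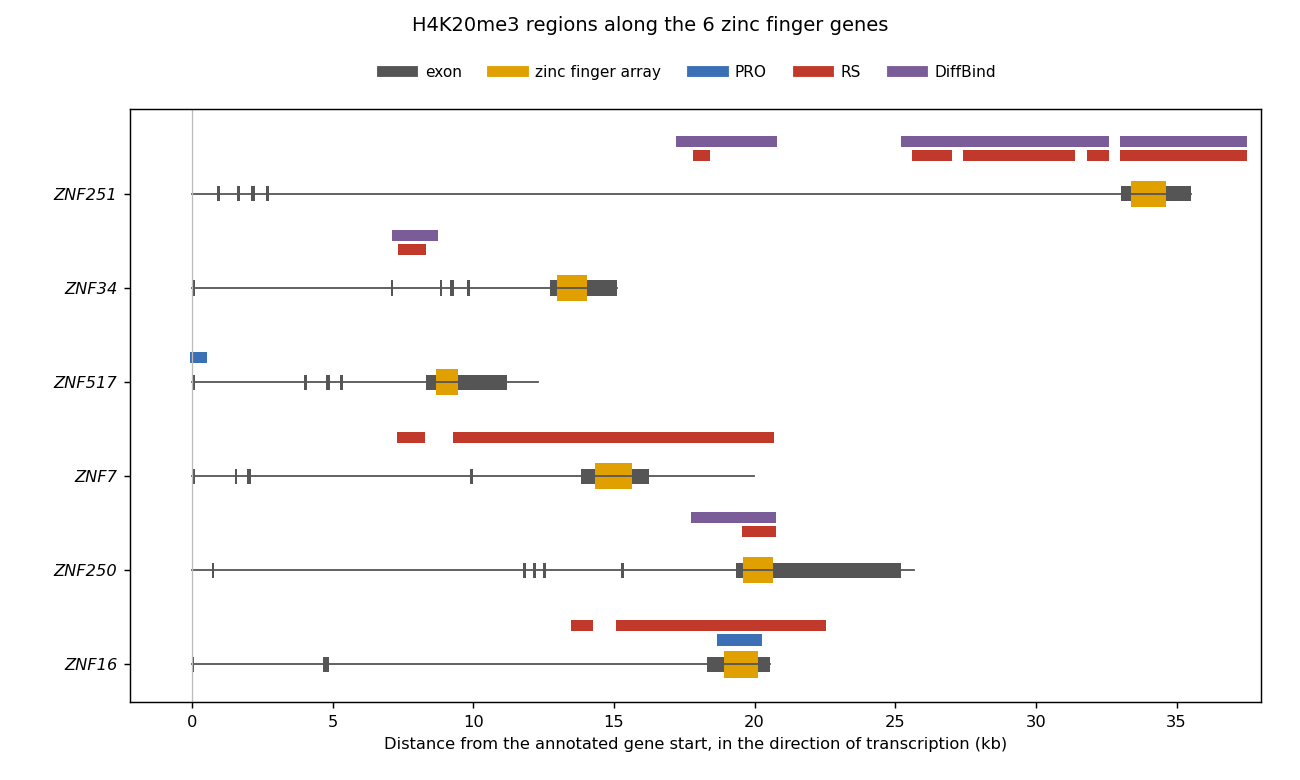
Each gene is drawn from its annotated start in the direction of transcription (kb), with exons in grey and the zinc finger array in yellow, and regions of each list above it, drawn up to 2 kb beyond the gene. RS peaks lie over the whole array of ZNF251, ZNF7, ZNF250 and ZNF16, the PRO peak of ZNF16 also lies over its array, and the PRO peak of ZNF517 lies at the gene start.

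The same measures were taken in the other zinc finger genes to see where the 6 genes differ. An array in a translated transcript without internal stops was found in 537 of the 560. The other 23 had no motif or a stop in the transcript model used, which does not show a broken gene. Of the 537, RS peaks covered the whole array in 118 (21.97%) and touched at least part of it in 250 (46.6%). They touched the 4001 bp around the gene start in 161 (29.98%). At 12q, RS peaks touched the array in 6 of 7 genes and covered it whole in 3. At 4p they touched it in 2 of the 3 genes with such an array and covered it whole in 1. Among the 349 with an RS peak anywhere in the body, the array was covered whole in 33.8%, compared with 4 of the 5 such genes at 8q24.3. The gene start was touched in 43.3% of the 349, compared with 0 of those 5. PRO peaks covered the whole array in 3 of 537 genes (0.559%), namely ZNF174, ZNF792 and ZSCAN18 (named after their values were seen), beside ZNF16 at 8q24.3. Whether these shares differ between the gene sets was not tested.

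The RS peaks of ZNF7 and ZNF16 stood outside the DiffBind list, whereas the groups over ZNF251 and ZNF252P lay mostly within it. The list used here has fewer regions than the study states, so a region the study called may be missing from it. Of the 31 RS peaks, 22 (the peak of 1 base included) lay wholly inside DiffBind regions. The other 9, with 23.8 kb, shared no base with them. The peaks in and beside ZNF7 and ZNF16 made up 5 of these 9 and 88.2% of their bases. All RS bases of the group over ZNF251 and its 3′ side were in DiffBind regions, and 84.7% of those in the group over ZNF252P were. The PRO list touches ZNF16 and not ZNF7, so a PRO peak accompanies the absence from the DiffBind list in 1 of these 2 genes. Of the 365 zinc finger genes with any RS bases, 64 (17.5%) had no DiffBind region. Among them, 191 had at least 30% of the body in RS peaks, and 12 of them (6.28%), ZNF7 and ZNF16 included, had no DiffBind region. The minimum of 30% was chosen after the values had been seen and lies just under the share of ZNF16. Of DiffBind regions in the stretch, 13 of 14 overlapped an RS peak and 0 overlapped a PRO peak, and 71.3% of their bases lay in RS peaks.

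The sequence of the stretch had few exact repeats. Of its known 75-base windows, 3.10% occurred elsewhere in the assembly, and 1.26% to 2.77% did so in the 6 gene bodies. The longest RS peak, over ZNF7, had 1.97%, and the RS peaks over the arrays of ZNF250 and ZNF16 had 0%. Leaving out every 200 bp unit with a repeated window gave 23.4% of the 6 gene bodies in RS, compared with 22.8%. GC content ranged from 47.1% (ZNF250) to 56.2% (ZNF517) among the 6 genes and was 60.9% in RPL8. The gene with the highest GC content among the 6 was the one with no RS peak. RS peaks of the stretch had up to 61.2% GC, and a part of GC content was not tested.

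The 8q24.3 genes were then compared with the zinc finger genes in stretches of the same length at the ends of 4p and 12q. In RS, the 5 genes at 4p had a median of 46.5% of the gene body covered (range 30.1% to 66.9%) and the 7 genes at 12q had 66.5% (56.8% to 78.2%), compared with 16.4% (0% to 58.5%) at 8q24.3. ZNF7 alone of the 6 genes reached the range of the 12q genes. DiffBind regions covered a median of 42.1% at 4p and 73.9% at 12q and touched every zinc finger gene of both stretches. Regions of all 3 lists occurred in 4 of 5 genes at 4p, in 7 of 7 at 12q and in 0 of 6 at 8q24.3. Over the 560 zinc finger genes outside 8q24.3, 135 (24.1%) had regions of all 3 lists. RS peaks held 43.3% of the whole stretch at 4p and 41.6% at 12q. RS bases exceeded PRO bases 12.1 times at 4p and 13.4 times at 12q. The 12q end holds more repeated sequence, with 38.5% of its 75-base windows found elsewhere in the assembly, compared with 5.95% at 4p. Its part in these shares was not tested.

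**Figure D4:**
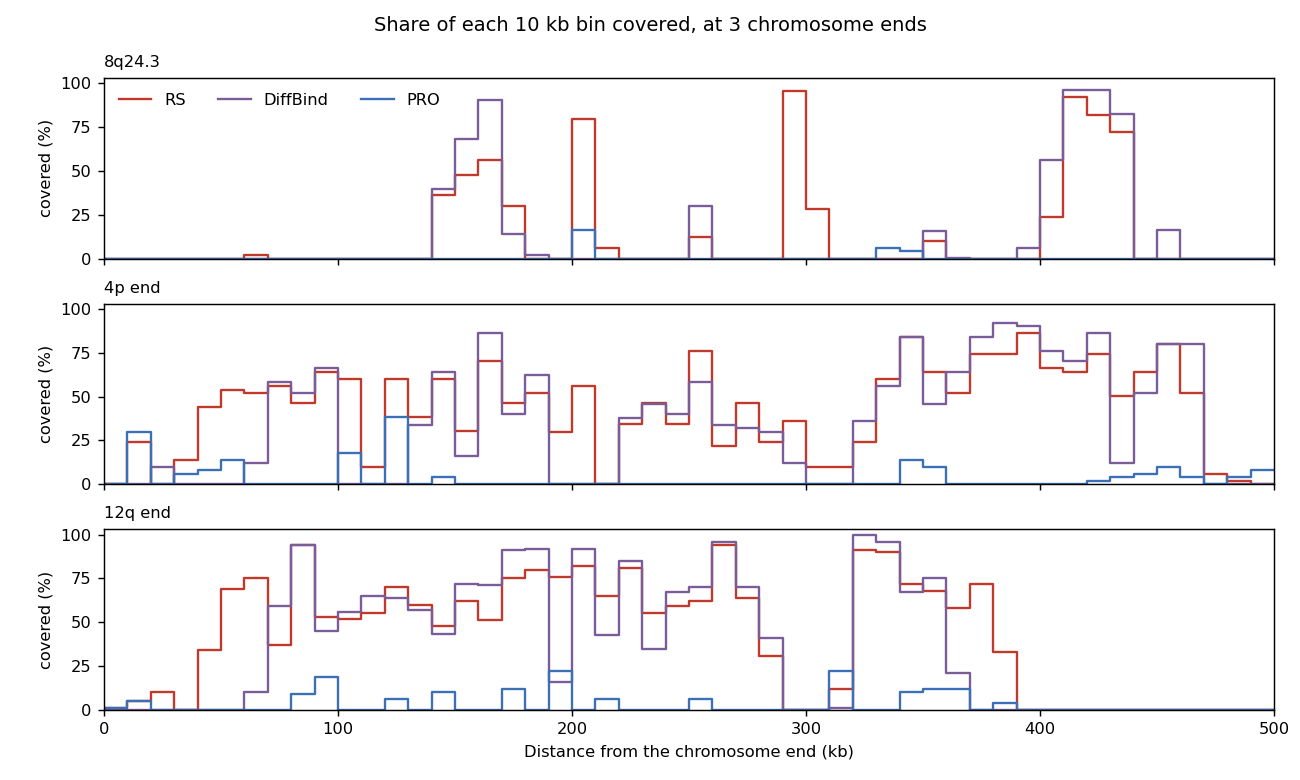
Percentage of each 10 kb bin covered by the RS, DiffBind and PRO lists against the distance from the chromosome end (kb). RS peaks occur in 15 of 50 bins at 8q24.3, 46 of 50 at 4p and 36 of 50 at 12q, and at 8q24.3 they form separate groups of which the bin from 290 to 300 kb, over ZNF7, reaches 95.8%.

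Among all zinc finger genes the 8q24.3 genes were middling in RS. The 560 others had a median of 11.6% of the body in RS peaks, 5.19% in DiffBind regions and 0% in PRO peaks, against 16.4%, 5.29% and 0% here. The 13 other zinc finger genes of chromosome 8 had a median of 0% in RS, and 5 of them had an RS peak. By the distance between the 3 shares of a gene and the median shares of the 6 genes, the most similar zinc finger genes elsewhere were ZNF223, ZNF749 and ZNF562, all on chromosome 19. Their RS shares were 18.5%, 17.0% and 19.8%. The distances were 2.70, 3.26 and 4.05 percentage points. No single member had these median shares, since the members ran from 0% to 58.5% in RS and from 0% to 38.1% in the DiffBind list. The 3 genes thus resemble the median and not a given member.

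**Figure D5:**
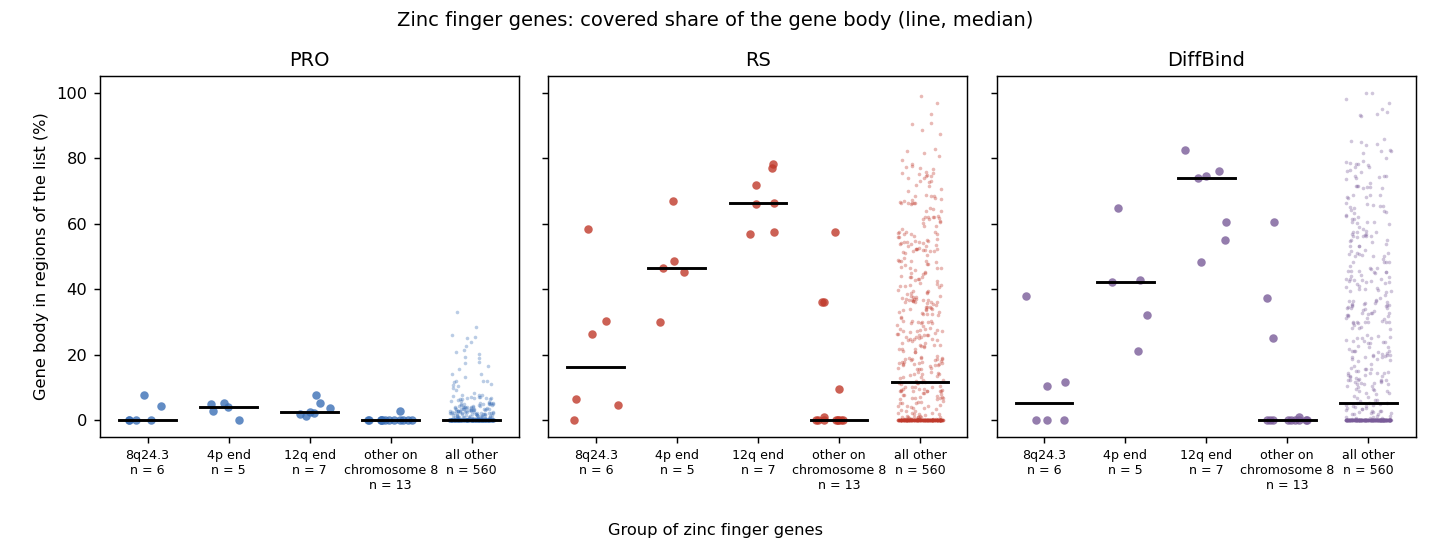
Each point is a zinc finger gene, the vertical axis is the percentage of its body in regions of the list named above the panel, and the line is the median of the group. In RS the 8q24.3 median (16.4%) lies below those of the 4p (46.5%) and 12q (66.5%) genes and near that of all other zinc finger genes (11.6%).

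Genes linked to H4K20me3, H3K9me3 and KRAB repression were examined as a further list. Of 14 genes, 4 shared a base with an RS peak, 3 with a DiffBind region and 1 with a PRO peak, compared with 21.0%, 18.3% and 3.97% of all coding genes. ZNF274, a zinc finger protein known to bring SETDB1 to the 3′ part of zinc finger genes, stood apart with 93.5% of its body in RS, 25.6% in PRO and 75.8% in the DiffBind list. The other 3 of the list with an RS peak, SETDB1, ATF7IP (a cofactor of SETDB1) and ATRX (a chromatin remodeller), had at most 3.06% of the body in RS. TRIM28, KMT5B and KMT5C had 0% in all 3 lists.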

How the data were processed

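The authors aligned single-end ChIP-seq reads to hg19 with Bowtie2 (version 2.1.0 per the labels) and called broad domains with SICER (1.1) in 200 bp windows against a histone H4 ChIP. They intersected the domains of both antibodies within each group and ran DiffBind (1.8.3) between groups. The study gives DESeq2 in 1 place and edgeR in another as the model behind DiffBind, and which of them made the list is not settled. The deposited lists hold start and end positions in bases and no other measurement. A domain therefore had to be found with both antibodies, and weaker enrichment in 1 of them leaves no trace.

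Genes and transcripts came from GENCODE release 44 mapped to GRCh37, whose coordinates on chromosome 8 equal those of hg19 (equal chromosome length). Printed coordinates are 1-based. Covered bases were counted in python 3.11.15 with numpy 2.4.6, after the counting was tested on simulated data. Zinc finger genes were those with symbols ZNF, ZFP, ZSCAN or ZKSCAN and a digit. A finger was C, 2 to 4 residues, C, 12 residues, H, 2 to 6 residues, H. Windows of 75 bases were searched on both strands of the 84 sequences of the assembly. Every start lay on the 200 bp grid and every end 1 base past it.

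The named genes are the 6 members, RPL8, every other coding gene of the stretch, the 3 non-coding genes with the largest RS shares and the 3 zinc finger genes most similar to the median of the members. Genes of a pathway list of 14 are named from that list, and ZNF252P, ZNF174, ZNF792 and ZSCAN18 were named after their values were seen. The members and lists were chosen with earlier results of these data known. No test was run, since each group has 1 list.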

Additional observations from a re-analysis of the deposited data

How the results depend on the processing

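Of 63 values under alternative settings for 9 results (the shares of the stretch and of the 6 gene bodies in each list, and the number of genes each list touches), 55 stayed within the 95% exact binomial interval of the value reported, taken over 200 bp units, or for counts within 1.5 times. Dropping peaks of 1 base and lowering ends by 1 base are among these settings and could hardly move a value. A fall from 3 to 2 genes touched by the DiffBind list, with canonical exons, counts as within 1.5 times. The interval serves only as a yardstick for a shift in value, since the covered bases of a list are counted exactly. It measures no spread between samples and treats neighbouring units as independent. Widening the stretch to the outer 1 Mb lowered the shares to 7.56% in RS, 0.260% in PRO and 7.76% in the DiffBind list. Merging regions within 1000 bp raised the RS share of the stretch to 15.3%. Taking canonical exons in place of gene bodies gave 40.9% in RS, 7.89% in PRO and 18.9% in the DiffBind list. With regions of at least 1000 bp, the PRO list touched 1 gene, ZNF16, since the peak of ZNF517 is shorter. RS exceeded PRO under every setting tried, by 5.19 to 38.1 times. No paired analysis was possible because a single merged list stands for each group. No list per antibody was used, so neither antibody could be left out. The lists give no depth. The study reports unequal read counts and duplicate shares for these libraries, and a much larger overlap between the antibodies in RS. The part of these differences in the PRO and RS values was not tested.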
